A study of Homo sapiens with 3 samples.

Results

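The 39 genes described here encode the machinery that imports proteins into mitochondria, folds them and removes them, and they were examined in Molm13 cells treated with pyrvinium. The genes were chosen by the known role of their products and were found by Entrez identifier among the 25702 genes of the deposited count tables; 37 were matched by their current symbol and 2, PHB (now PHB1) and TOMM70A (now TOMM70), by an older one. They were divided by the place and the role of their products into 7 genes of the outer membrane, 5 of the intermembrane space, 7 inner membrane translocases, 3 inner membrane scaffold genes, 8 chaperones and 9 proteases. The outer membrane group includes TOMM34, whose product is a cytosolic partner of import. Molm13, a cell line established from human acute myeloid leukemia, carries an internal tandem duplication in FLT3. Cells were exposed for 6 h to the vehicle DMSO, to 50 nM pyrvinium or to 100 nM pyrvinium, and strand-specific mRNA libraries were sequenced, with 1 library per condition. With a single library each, no difference below has a replicate check, and every interval covers counting error only.

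Nearly all mitochondrial proteins are made in the cytosol and enter through the TOM complex of the outer membrane. The TIM23 complex then passes them through the inner membrane, where the membrane potential and an ATP-driven motor built around the HSP70 chaperone HSPA9 pull them in, the presequence is clipped off by a peptidase, and HSP60 (HSPD1) with its lid HSP10 (HSPE1) helps them fold. Carrier proteins take another route, through the small TIM chaperones of the intermembrane space and the TIM22 complex. Proteases such as LONP1, CLPXP and the AAA proteases of the inner membrane degrade proteins that fail to fold.

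The libraries held 22677038 to 24075123 counts, and the 39 genes took 0.814% of the counts after DMSO and 0.813% at 50 nM, with 95% Wilson intervals of 0.81 to 0.818 and 0.81 to 0.817. The share was 0.787% at 100 nM (0.783 to 0.79). All 10 myeloid leukemia markers examined were detected, with a summed level of 1300 to 1430 CPM (counts per 1000000 counts of the library), whereas markers of T, B, erythroid and epithelial cells and fibroblasts summed to at most 1.34 CPM per list, and the 3 epithelial markers were at 0. All 39 genes passed the filter of at least 10 counts in at least 1 library, as did 12879 genes in all. In bulk RNA, a change in the number of cells of a kind and a change in the RNA per cell cannot be told apart.

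The machinery was strongly expressed in the DMSO library. On a scale of CPM per kilobase of exon, which allows genes to be compared, 38 of the 39 lay above the median level of the genes tested in the DMSO library, and 21 lay in the top 10%. HSPD1 was the highest, at 718 CPM per kilobase after DMSO, 700 at 50 nM and 631 at 100 nM. Its lid HSPE1 followed with 350, 300 and 263, and HSPA9 with 284, 305 and 318, on the same scale. The lowest member was SPG7, a subunit of the matrix-facing AAA protease, with 7.5, 7.71 and 7.14 CPM per kilobase. Partners and paralogs differed widely in level: AFG3L2, which forms that protease with SPG7, stood at 53.2 after DMSO, and the general translocase subunit TIMM17A at 79.0 against 13.5 for its paralog TIMM17B. The nucleotide exchange factor GRPEL1 stood at 81.3 and its paralog GRPEL2 at 10.5.

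**Figure D1:**
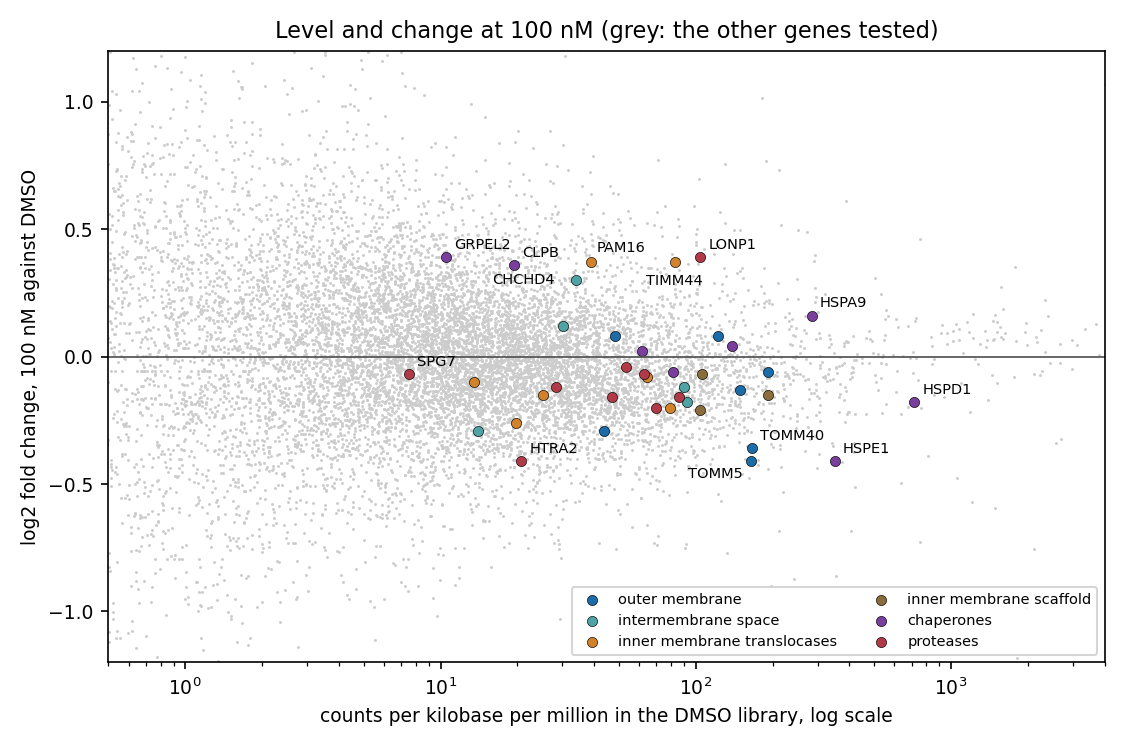
Each point is a gene; the horizontal axis gives its level in the DMSO library in CPM per kilobase of exon (log scale) and the vertical axis its log2 fold change at 100 nM, with the 39 genes colored by group and the other genes tested in grey. Genes beyond the axis limits are not drawn. The members lie to the right, from SPG7 at 7.5 to HSPD1 at 718, and between -0.41 and 0.39 on the vertical axis.

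At 100 nM, the changes of this machinery were small and went in both directions. A change was called where the log2 fold change (log2FC) was at least 0.32 in size, that is a rise of 25% or a fall of 20%, and the p of an exact binomial test, adjusted over all genes by Benjamini-Hochberg, was at most 0.05. The test compares 2 libraries and not the conditions. By this rule 5 of the 39 genes rose and 4 fell. These 9 genes are 23.1% of the members, against 18.5% of the 12879 genes tested and 17.3% of the 8104 genes with a mean count at least that of the lowest member, so the share called was near the background. In the same order, 12.8% of the members rose, against 10.3% of all genes, and 10.3% fell, against 8.2%. None reached the 2-fold threshold used in the study, which 2.2% of all genes and 0.383% of the 8104 passed. The risers were LONP1, GRPEL2, TIMM44, PAM16 and CLPB, and the genes that fell were HSPE1, HTRA2, TOMM5 and TOMM40. With no fold threshold, 27 of the 39 genes (69.2%) passed the adjusted p, 9 higher and 18 lower, against 43.1% of all genes and 55.9% of the 8104 genes. The 9 higher genes are 23.1% of the members, against 21.1% of all genes and 25.7% of the 8104. The 18 lower genes are 46.2% of the members, against 22.0% of all genes and 30.2% of the 8104. Without a fold threshold a call depends on depth, and the 8104 share only a lower limit of mean count with the members. These shares are therefore not matched for depth.

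The median log2FC of the 39 genes at 100 nM was -0.10, beside -0.002 over all genes tested (whose mean was 0.038) and -0.022 over the 8104. Below 0 lay 27 of the 39 (69.2%), beside 50.4% of all genes. The extremes were -0.41 and 0.39, so every member lay between the 5th and the 95th percentile of all genes, which were -0.54 and 0.75. These percentiles include genes of low count, and they were not taken over the 8104. The quartiles were -0.16 and 0.13 over the 8104, beside -0.18 and 0.21 over all genes and -0.19 and 0.06 over the members. When a biological coefficient of variation of 0.1 was assumed in edgeR's exact test, 0 of the 39 genes were called (2 with unadjusted p in place of adjusted p), and none was called with 0.2 or 0.4. Few genes were called in all: of the 12879 tested, 244 with 0.1, 12 with 0.2 and 0 with 0.4, by adjusted p.

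**Figure D2:**
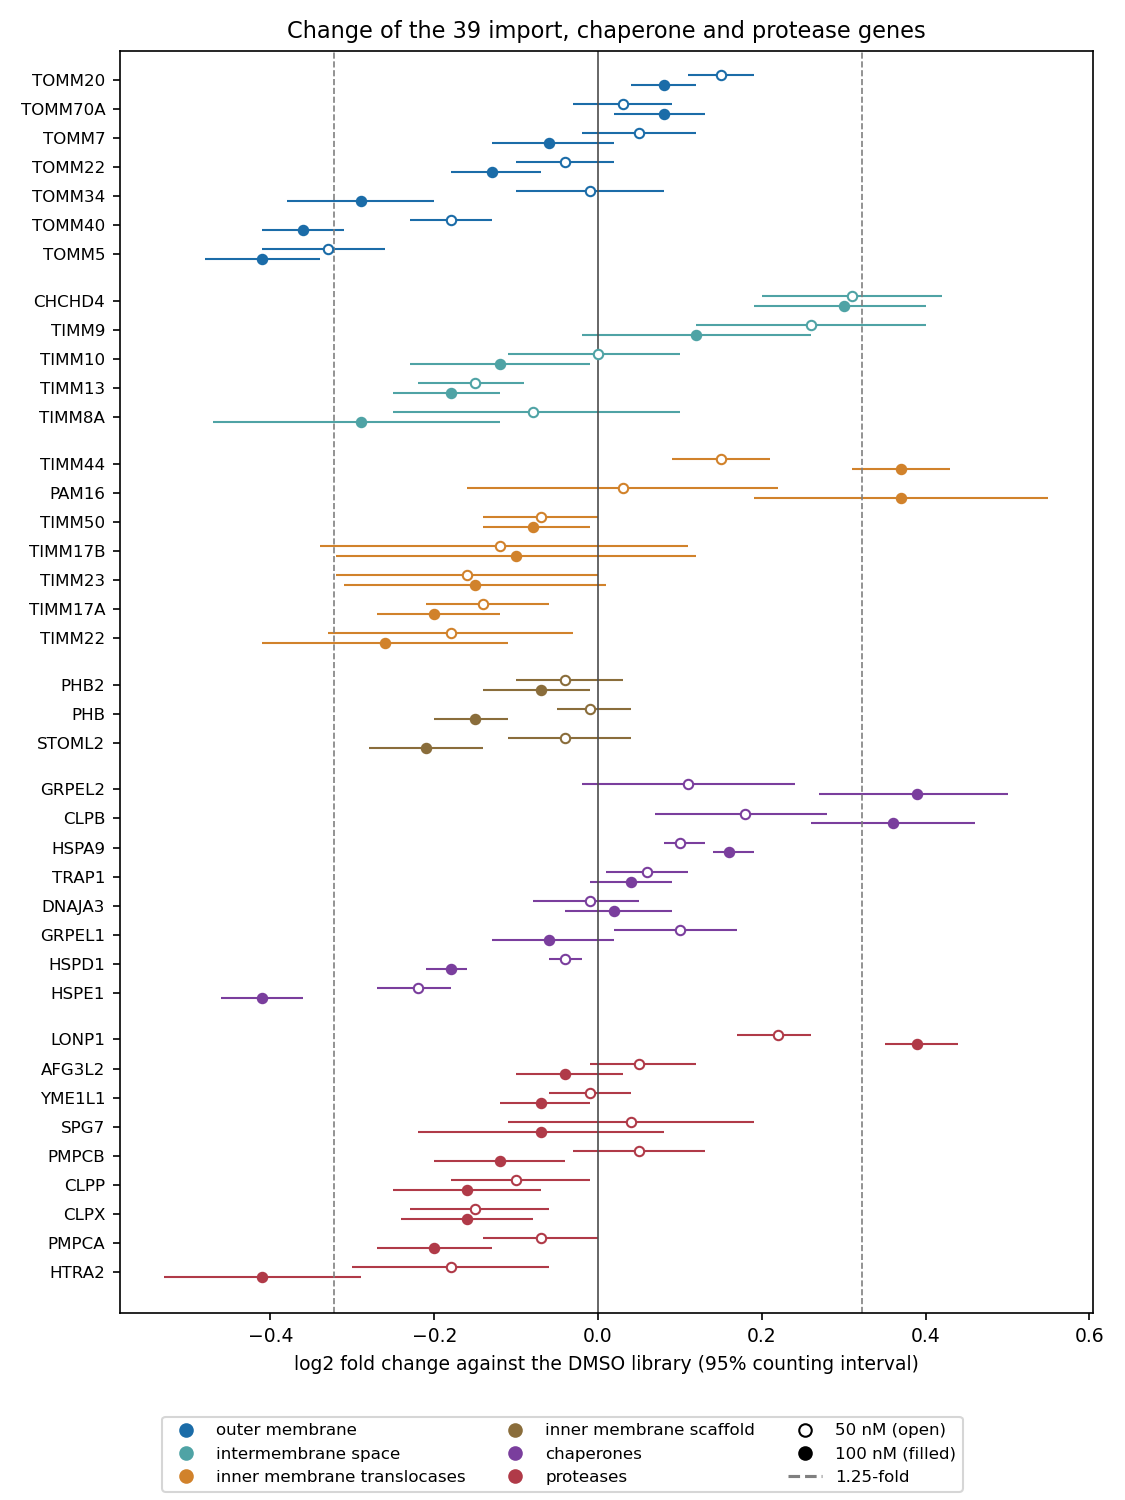
The horizontal axis gives the log2FC against the DMSO library of each of the 39 genes, open circles at 50 nM and filled circles at 100 nM, with 95% counting intervals as bars; both doses share the DMSO library. The dashed lines mark the fold threshold of the calls, 0.32 on the log2 scale. At 100 nM, LONP1, GRPEL2, TIMM44, PAM16 and CLPB lie past the right line and HSPE1, HTRA2, TOMM5 and TOMM40 past the left one.

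In the outer membrane, the pore and a small subunit fell while the receptors stayed near their DMSO level. TOMM40, the channel of the TOM complex (Entrez 10452, chromosome 19 of hg19 from 45394477 to 45406946), had 300 CPM after DMSO, 264 at 50 nM and 234 at 100 nM. Its log2FC at 100 nM was -0.36 (counting interval -0.41 to -0.31), with an adjusted p of 1.8e-42 in the exact binomial test. TOMM5, a small subunit bound to that channel (Entrez 401505, chromosome 9 from 37588410 to 37592636), had 149, 118 and 112 CPM, a log2FC of -0.41 (interval -0.48 to -0.34). The 2 genes differed in their course: TOMM40 was intermediate at 50 nM, whereas TOMM5 was already at -0.33 there (interval -0.41 to -0.26) and was the only one of the 39 genes called at that dose.

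Of the import receptors, TOMM20, which binds presequences, had 413, 459 and 437 CPM, a log2FC of 0.08 at 100 nM. TOMM70A, the receptor for carrier proteins, had 210, 214 and 221 CPM, and its log2FC was also 0.08. TOMM22, the central receptor, had 205, 200 and 188 CPM (-0.13). The 3 receptors were all inside the fold threshold at both doses. The ratio of TOMM20 to TOMM70A counts changed by a log2 value of 0.01 between DMSO and 100 nM (interval -0.06 to 0.08). TOMM34, a cytosolic co-chaperone of preproteins, stood at -0.29 at 100 nM (interval -0.38 to -0.20) and at -0.01 at 50 nM. The small subunit TOMM7 stood at -0.06. Over the 7 outer membrane genes the median at 100 nM was -0.13. Of them 2 fell and 0 rose, where 8.2% of all genes fell and 10.3% rose.

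None of the 5 import genes listed under the intermembrane space was called at either dose; CLPB and HTRA2, which act in the same space, are described with the chaperones and proteases. CHCHD4 (MIA40), the oxidoreductase that traps cysteine-rich proteins there, came closest, with 54.3 CPM after DMSO, 67.2 at 50 nM and 66.6 at 100 nM. Its log2FC was 0.31 at 50 nM (interval 0.20 to 0.42) and 0.30 at 100 nM (0.19 to 0.40), and the treated libraries differed from each other by -0.01. Among the small TIM chaperones, which CHCHD4 oxidizes, the values at 100 nM were 0.12 for TIMM9, -0.12 for its partner TIMM10, -0.18 for TIMM13 and -0.29 for TIMM8A. The ratio of TIMM9 to TIMM10 counts was 0.539 after DMSO, 0.646 at 50 nM and 0.637 at 100 nM, a change of 0.24 on the log2 scale at 100 nM (exact interval 0.06 to 0.42). The median of the 5 genes was -0.12.

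In the inner membrane, 2 genes of the import motor rose and no channel gene was called. TIMM44, which tethers HSPA9 to the channel (Entrez 10469, chromosome 19 from 7991603 to 8008708), had 165 CPM after DMSO, 184 at 50 nM and 214 at 100 nM. Its log2FC at 100 nM was 0.37 (interval 0.31 to 0.43), with an adjusted p of 1.19e-32 in the exact binomial test, and it was 0.15 at 50 nM. PAM16, which controls the J-protein of the motor (Entrez 51025, chromosome 16 from 4390252 to 4401300), had 19.8, 20.2 and 25.6 CPM. It was unlike TIMM44 in that the 50 nM library lay at the DMSO level. From 460 counts after DMSO and 618 at 100 nM its log2FC was 0.37 (interval 0.19 to 0.55).

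The channel subunits and receptor of the TIM23 complex were all below DMSO in point value at 100 nM. The log2FC values there were -0.15 for TIMM23, -0.20 for TIMM17A, -0.10 for TIMM17B and -0.08 for the receptor TIMM50. The interval of TIMM17A, -0.27 to -0.12, excluded 0, and those of TIMM17B and TIMM23 did not. TIMM23 has a near-identical copy in the genome, TIMM23B, which was not found among the genes of the deposited counts. Whether reads of that copy were counted for TIMM23 is uncertain. TIMM22, the channel for carrier proteins, stood at -0.26 (interval -0.41 to -0.11). The ratio of TIMM17A to TIMM17B, paralogs that take the same place in the complex, changed by -0.10 (exact interval -0.33 to 0.14), with 309 to 343 counts of TIMM17B behind it. Over the 7 translocase genes the median was -0.10, with 2 higher calls and 0 lower, where 10.3% of all genes rose and 8.2% fell.

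The 3 scaffold genes of the inner membrane had values slightly below DMSO at 100 nM. PHB and PHB2, which assemble into the prohibitin ring, had log2FC values of -0.15 (interval -0.20 to -0.11) and -0.07 (-0.14 to -0.01) at 100 nM, and STOML2, a related membrane scaffold protein, had -0.21 (-0.28 to -0.14). At 50 nM the 3 values lay between -0.04 and -0.01. None of them was called.

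The chaperones were divided at 100 nM, with 2 genes higher, 1 lower and a median of 0.03, where 10.3% of all genes rose and 8.2% fell. HSPE1 (Entrez 3336, chromosome 2 from 198364721 to 198368187) had 334 CPM after DMSO, 286 at 50 nM and 251 at 100 nM, with the middle value at 50 nM. It fell at 100 nM: its log2FC at 100 nM was -0.41 (interval -0.46 to -0.36), with an adjusted p of 8.77e-61 in the exact binomial test. HSPD1 (Entrez 3329, chromosome 2 from 198351308 to 198364998) had 1750, 1700 and 1540 CPM and a log2FC of -0.18 (interval -0.21 to -0.16) and was not called, the change being under the fold threshold. HSP60 and HSP10 work as 1 folding chamber, but their transcripts did not keep their proportion: the ratio of HSPD1 to HSPE1 counts was 5.24 after DMSO, 5.97 at 50 nM and 6.14 at 100 nM, a change of 0.23 on the log2 scale (interval 0.18 to 0.28).

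Both have processed pseudogenes with near-identical sequence, and how reads were shared with those is uncertain. The HSPD1 and HSPE1 genes lie head to head, and 115 exonic bases of the annotation belong to both, on opposite strands. In the RefSeq promoter table, which uses build GRCh38.p14, their starts are 105 bases apart and their windows, 250 bases before to 50 after the start, share 204 bases. The window of HSPD1, at chr2:197500225-197500524 on the minus strand, is printed because both genes are read from it; the capitals mark the E-box CACGTG, which lies in the shared stretch.
HSPD1: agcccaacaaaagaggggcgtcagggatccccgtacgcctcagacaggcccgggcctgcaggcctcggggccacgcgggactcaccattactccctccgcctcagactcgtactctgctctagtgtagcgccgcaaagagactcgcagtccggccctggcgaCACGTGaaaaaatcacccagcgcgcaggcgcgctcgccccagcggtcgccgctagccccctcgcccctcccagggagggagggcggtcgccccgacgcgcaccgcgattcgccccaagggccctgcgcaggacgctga

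HSPA9, the mitochondrial HSP70 that drives both import and folding, had values above DMSO where those of HSPD1 and HSPE1 were below. It had 996 CPM after DMSO, 1070 at 50 nM and 1110 at 100 nM, a log2FC of 0.16 (interval 0.14 to 0.19), or 1.12-fold. GRPEL2, an exchange factor that resets HSPA9 (Entrez 134266, chromosome 5 from 148724977 to 148734146), had 43.1, 46.5 and 56.2 CPM and rose by a log2FC of 0.39 at 100 nM (interval 0.27 to 0.50), with an adjusted p of 1.38e-09 in the exact binomial test. Its more abundant paralog GRPEL1 had 122, 131 and 118 CPM and a value of -0.06 (interval -0.13 to 0.02). The GRPEL1 to GRPEL2 ratio was 2.84 after DMSO, 2.81 at 50 nM and 2.09 at 100 nM, a change of -0.44 on the log2 scale (exact interval -0.58 to -0.30). The paralogs thus differed in their response at 100 nM beyond counting error.

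CLPB, a disaggregase of the intermembrane space (Entrez 81570, chromosome 11 from 72003469 to 72145568), had 60.6 CPM after DMSO, 68.4 at 50 nM and 77.7 at 100 nM. Its log2FC at 100 nM was 0.36 (interval 0.26 to 0.46). TRAP1, the mitochondrial HSP90, and the J-protein DNAJA3 stood at 0.04 and 0.02, and both intervals included 0. Grouped after their values were known, the motor genes TIMM44, PAM16, GRPEL2 and HSPA9 were above DMSO at 100 nM, while GRPEL1 was not distinguishable from it. The same held for the J-proteins of the motor, DNAJC19 (0.03, interval -0.17 to 0.22) and its paralog DNAJC15 (0.00, interval -0.41 to 0.41).

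Among the proteases, LONP1 rose and HTRA2 fell at 100 nM, and the other 7 genes lay slightly below DMSO in point value. Of these, AFG3L2 (interval -0.10 to 0.03) and SPG7 (-0.22 to 0.08) were not distinguishable from DMSO. LONP1, the main quality-control protease of the matrix (Entrez 9361, chromosome 19 from 5691845 to 5720176), had 324 CPM after DMSO, 377 at 50 nM and 426 at 100 nM. Its log2FC was 0.22 at 50 nM (interval 0.17 to 0.26) and 0.39 at 100 nM (0.35 to 0.44), or 1.31-fold, with an adjusted p of 3.06e-71 at 100 nM in the exact binomial test. Within this group of 9 it was the only gene above DMSO at 100 nM. On the list of other genes described below, the protease OMA1 rose as well (0.57), while IMMP1L, a peptidase subunit, fell (-0.55). The other matrix protease did not share this course: CLPP, its peptidase, and CLPX, its unfoldase, both stood at -0.16 (intervals -0.25 to -0.07 and -0.24 to -0.08). The ratio of CLPP to CLPX counts was 0.891 after DMSO, 0.922 at 50 nM and 0.891 at 100 nM, with an interval of -0.12 to 0.12 for the log2 change at 100 nM.

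HTRA2, a serine protease of the intermembrane space (Entrez 27429, chromosome 2 from 74756532 to 74760683), had 52.9 CPM after DMSO, 46.6 at 50 nM and 39.8 at 100 nM, a log2FC of -0.41 at 100 nM (interval -0.53 to -0.29). Of its exonic bases, 43.1% are also exonic in AUP1 or LOXL3 on the opposite strand, and the strand setting of the counting is not given in the sources used here. AUP1 stood at -0.18 and LOXL3 at -0.02 at 100 nM, and their part in the HTRA2 value was not tested.

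Of the 9 genes in the protease group, the AAA proteases of the inner membrane were closest to DMSO at 100 nM. YME1L1, which faces the intermembrane space, had 253, 252 and 241 CPM (-0.07). AFG3L2 and SPG7, which face the matrix, had values of -0.04 and -0.07, and the ratio between them changed by 0.03 (exact interval -0.13 to 0.20). The subunits of the processing peptidase that removes presequences, PMPCA and PMPCB, stood at -0.20 (interval -0.27 to -0.13) and -0.12 (-0.20 to -0.04). Over the 9 protease genes the median was -0.12, with 8 below 0, although their summed counts, to which LONP1 gave the most, were 0.02 above DMSO on the log2 scale (interval 0.00 to 0.05).

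**Figure D3:**
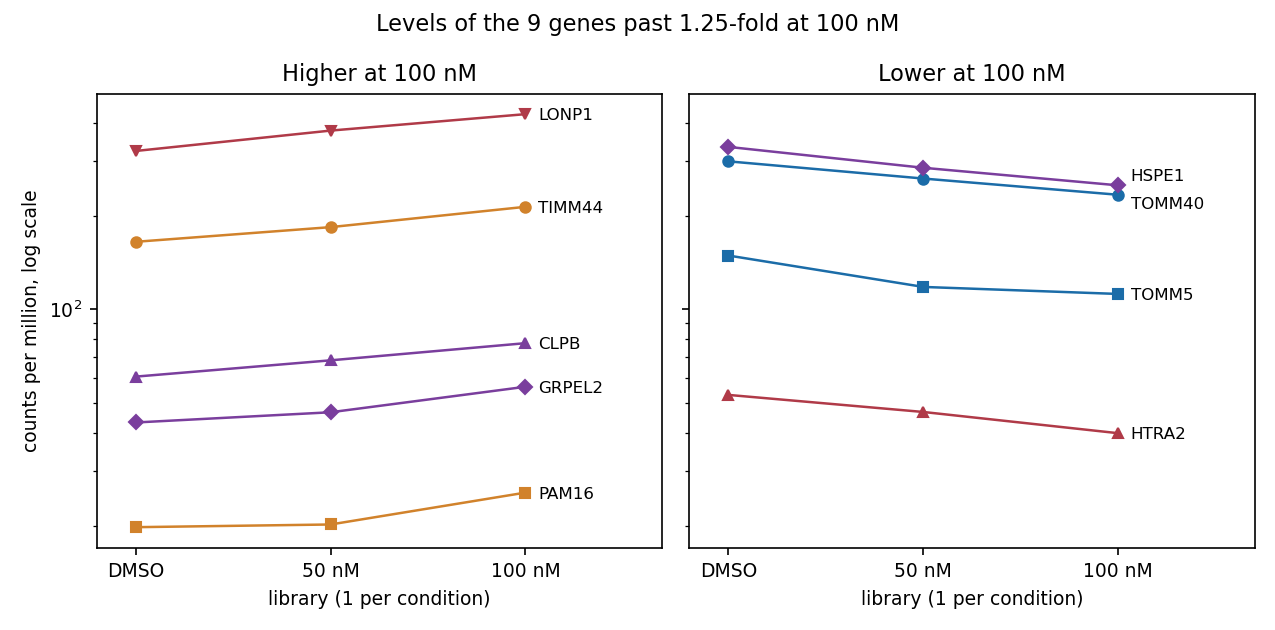
CPM (log scale) in the 3 libraries for the 5 genes that rose (left) and the 4 that fell (right) at 100 nM, 1 point per library and colored by group. PAM16 is at 20.2 at 50 nM, close to its DMSO level of 19.8, and TOMM5 at 118, close to its 100 nM level of 112, while the other 7 genes lie between their DMSO and 100 nM levels.

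Compared as wholes, the groups differed by little. Relative to the summed counts of the other members, those of the inner membrane translocases changed by 0.11 on the log2 scale at 100 nM (interval 0.07 to 0.14) and those of the proteases by 0.09 (0.06 to 0.11). Of the 7 translocase genes, 5 had a log2FC below 0 against DMSO. TIMM44 went from 3835 counts after DMSO to 5169 at 100 nM, and the similarly abundant TIMM50 from 3829 to 3780. The outer membrane genes changed by -0.07 (-0.09 to -0.04) and the scaffold by -0.10 (-0.14 to -0.07). The chaperones, at -0.01 (-0.02 to 0.01), and the intermembrane space, at -0.02 (-0.06 to 0.03), did not differ from the rest beyond counting error. A sum is set by its most abundant genes, and against DMSO its log2FC had the opposite sign to the median for the translocases (0.05), the proteases (0.02) and the chaperones (-0.05).

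At 50 nM, TOMM5, which fell, was the only one of the 39 genes called. That is 2.56% of them, against 8.36% of all genes tested (3.8% lower). With no fold threshold, 9 genes were higher and 8 lower (43.6% of the members, against 28.2% of all genes and 38.5% of the 8104), and the median log2FC was -0.013, beside 0.001 over all genes. Between the treated libraries, PAM16 was the only gene called, with a log2FC of 0.34 from 50 nM to 100 nM and an adjusted p of 0.00176 in the exact binomial test. The share of 2.56% there stands beside 2.99% of all genes (1.82% higher). With no fold threshold, 20 of the 39 (51.3%) passed the adjusted p between these libraries, against 16.9% of all genes and 24.1% of the 8104. Of these, 14 were lower (35.9% of the members, against 13.6% of the 8104) and 6 higher (15.4% against 10.4%). The shares with no fold threshold were not matched for depth here either. The comparisons with DMSO share that library, and their values are not independent.

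The mitochondrial members of the HSP70 and HSP90 families were not called, while 4 of 5 relatives in the cytosol and endoplasmic reticulum fell, HSP90AB1 being the exception. These relatives were picked by name, and the study had already named HSPA8, HSPA5 and HSP90B1 as lower at 100 nM in these same data. Their falls are therefore not an independent result, and the count of 4 cannot be weighed against the 8.2% of all genes that fell at that dose. At 100 nM the log2FC was 0.16 for HSPA9, -0.75 for HSPA8, the constitutive HSP70 of the cytosol (interval -0.77 to -0.74), and -0.90 for HSPA5, that of the endoplasmic reticulum (-0.94 to -0.86). The ratio of HSPA9 to HSPA8 counts went from 0.209 after DMSO to 0.289 at 50 nM and 0.393 at 100 nM, a change of 0.91 on the log2 scale (interval 0.89 to 0.94), and that of HSPA9 to HSPA5 from 1.28 to 2.03 and 2.66, a change of 1.06 (1.02 to 1.10). These ratios are taken within each library and need no scaling, but the cytosolic genes have processed pseudogenes too. TRAP1 stood at 0.04 against -0.68 for HSP90B1 of the endoplasmic reticulum, and their ratio changed by 0.72 (interval 0.67 to 0.78). The cytosolic pair was split: HSP90AA1 stood at -0.48, while HSP90AB1 was at -0.07, and the TRAP1 to HSP90AB1 ratio changed by only 0.11 (0.06 to 0.16).

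**Figure D4:**
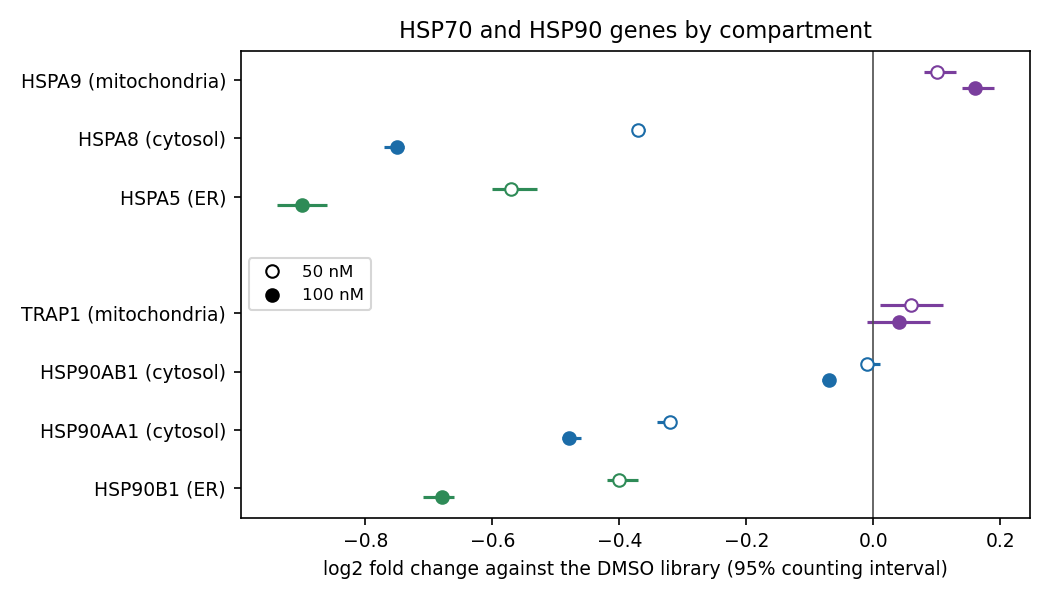
Log2FC against the DMSO library for HSP70 genes (top) and HSP90 genes (bottom) of the mitochondria, cytosol and endoplasmic reticulum (ER), with open circles at 50 nM, filled circles at 100 nM and 95% counting intervals as bars. HSPA9 and TRAP1 lie to the right of 0 at both doses, with the interval of TRAP1 at 100 nM reaching across it, HSP90AB1 lies near 0, and the other 4 genes lie between -0.90 and -0.32.

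Of a list of 35 other genes of import and mitochondrial proteolysis, 34 were in the tables and 33 passed the filter. Their median log2FC at 100 nM was -0.07, and 3 rose and 4 fell, where 10.3% of all genes rose and 8.2% fell. The highest was OMA1, a stress-activated protease of the inner membrane, with 389 counts after DMSO, 527 at 50 nM and 599 at 100 nM and log2FC values of 0.47 and 0.57 (interval at 100 nM 0.38 to 0.75). COX18, an insertase, and MTX3, a metaxin of the outer membrane, rose by 0.47 and 0.33. The genes that fell were TOMM6 (-0.34), a small subunit of the TOM complex like TOMM5, TOMM40L (-0.34), a paralog of TOMM40, TIMM21 (-0.32), a subunit of the TIM23 complex, and IMMP1L (-0.55), a subunit of the inner membrane peptidase. The TOM complex genes that fell, TOMM40, TOMM5 and TOMM6, had log2FC values at 50 nM of -0.18, -0.33 and -0.19.

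Transcripts of 3 stress regulators, picked by name together with HSF1, rose at 100 nM, where 10.3% of all genes rose. ATF5, a factor linked to the mitochondrial unfolded protein response, had 1045 counts after DMSO, 1174 at 50 nM and 1576 at 100 nM, a log2FC of 0.54 at 100 nM (interval 0.42 to 0.65). ATF4 stood at 0.49 and DDIT3 (CHOP) at 1.02. HSF1, the heat shock factor, stood at 0.14 (0.03 to 0.25). Whether any of them acted on the 39 genes was not tested.

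Promoter windows were listed for 35 of the 39 genes, and their GC content had the same median, 65.3%, as those of the 9705 tested genes with a window. Motifs were searched on both strands, and a match is a description of these letters only. CACGTG, an E-box, was found in 7 of the 35 windows (20%, against 10.7% of tested genes), those of HSPD1, HSPE1, HSPA9, LONP1, TOMM20, TIMM8A and TIMM10, which include genes above and below DMSO. GCGCATGC, the site of the respiratory regulator NRF1, was in 5 (14.3% against 6.13%), those of DNAJA3, TOMM7, TIMM9, PAM16 and CHCHD4. Of these genes only PAM16 was called, and they too include genes above and below DMSO in point value. TTCNNGAA, the core of a heat shock element, was in 4 (11.4% against 6.26%), and its other phase, GAANNTTC, was in 0 (4.64% of tested genes). TGATGCAA, the composite site of C/EBP and ATF factors, was in 2 (5.71% against 0.495%), TIMM22 and PMPCB, neither of which was called. TGACGTCA, the cyclic AMP response element, was in 1 (2.86% against 3.36%), TRAP1. The 2 heat shock phases can share letters, and the E-box of HSPD1 and HSPE1 is the same stretch.

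The windows of 3 genes that were above DMSO at 100 nM are printed, HSPA9 for holding TTCNNGAA beside an E-box, LONP1 for its pair of E-boxes and PAM16 for its NRF1 site, with the motifs in capitals. In GRCh38.p14 they lie at chr5:138575352-138575651, chr19:5720097-5720396 and chr16:4351272-4351571, all on the minus strand.
HSPA9: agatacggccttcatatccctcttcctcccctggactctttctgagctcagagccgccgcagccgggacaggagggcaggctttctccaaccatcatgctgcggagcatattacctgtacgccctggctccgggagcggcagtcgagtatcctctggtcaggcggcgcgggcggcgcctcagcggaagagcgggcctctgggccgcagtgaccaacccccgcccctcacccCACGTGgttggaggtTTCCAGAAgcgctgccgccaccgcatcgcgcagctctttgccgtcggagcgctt
LONP1: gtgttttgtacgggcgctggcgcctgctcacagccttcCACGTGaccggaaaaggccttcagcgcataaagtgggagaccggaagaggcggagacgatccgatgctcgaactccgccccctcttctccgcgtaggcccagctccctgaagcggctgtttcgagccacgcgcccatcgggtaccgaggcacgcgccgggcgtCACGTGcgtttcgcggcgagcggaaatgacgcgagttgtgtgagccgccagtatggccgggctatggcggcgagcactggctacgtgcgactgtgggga
PAM16: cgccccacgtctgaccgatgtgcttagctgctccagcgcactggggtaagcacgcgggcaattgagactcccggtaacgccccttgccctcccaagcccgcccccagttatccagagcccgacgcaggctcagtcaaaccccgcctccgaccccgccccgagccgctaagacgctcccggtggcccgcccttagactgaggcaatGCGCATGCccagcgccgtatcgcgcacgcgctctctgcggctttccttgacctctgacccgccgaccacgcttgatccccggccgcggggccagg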

How the data were processed

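RNA of Molm13 cells was sequenced from 3 libraries, 1 each for DMSO, 50 nM and 100 nM pyrvinium at 6 h, and groups were taken from the sample titles. Read pairs were aligned by the authors with Rsubread (build hg19), and they deposited raw counts per Entrez gene from featureCounts. The counting annotation and strand setting are not given in the sources used here. A table of the authors' own EBSeq comparisons, with posterior probabilities, fold changes and condition means, was not used. Entrez identifiers were given symbols from a RefSeq table, in which 23696 of 25702 were found. Coordinates span the first to the last exon in hg19, as deposited.

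TMM factors came from edgeR 4.0.16 (R 4.3.3) and the 12879 genes that reached 10 counts in any library. For each pair of libraries, a two-sided exact binomial test (scipy 1.17.1) was applied to every gene, with Benjamini-Hochberg adjustment over all genes tested; a call needed an adjusted p of at most 0.05 and a log2 fold change of at least 0.32 in size. To each count 0.5 was added for log2 fold changes; intervals are 95% Clopper-Pearson intervals, which with no molecular identifiers cover counting error only. In the libraries, 3 counts are 1.25e-05% to 1.32e-05% of the total. Changes in the ratio of genes within libraries have exact conditional intervals up to 20000 counts per comparison and normal approximations above that, since the exact form was too slow there. Such ratios were compared for 13 pairs, without p-values. The procedure was tested on simulated libraries with counting error only, which cannot show how calls behave under spread between replicates. The alternatives were other scalings (library totals, DESeq2 1.42.0 size factors, TMM leaving out genes of the mitochondrial genome), count filters, counts added, fold thresholds and assumed spreads. All 39 members, the listed counterparts and regulators, and called genes of the pathway list were named; DNAJC19 and DNAJC15 were named as J-proteins of the import motor. The members, lists, threshold and groups were chosen with earlier results of these data known. The background of 8104 genes, averaging 328 counts or more, was added after the data were examined.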

Additional observations from a re-analysis of the deposited data

How the results depend on the processing

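The number of members called depended on the fold threshold and on the spread assumed between replicates, which 1 library per condition cannot give. With no fold threshold, 27, 17 and 20 of the 39 genes were called at 100 nM against DMSO, 50 nM against DMSO and 100 nM against 50 nM, in place of 9, 1 and 1. At 1.5-fold, at 2-fold and in edgeR's exact test with the biological coefficient of variation set to 0.1, 0.2 or 0.4, 0 were called in each comparison. At 0.1 and with unadjusted p, 2 passed at 100 nM against DMSO and 0 in the other comparisons. These counts of 0 stand beside small numbers over all 12879 genes tested. Against DMSO, 864 genes were called at 100 nM and 332 at 50 nM with 1.5-fold, and 283 and 123 with 2-fold. With adjusted p, the assumed spread of 0.1 left 244 and 36, that of 0.2 left 12 and 0, and that of 0.4 left 0 at both doses. edgeR's quasi-likelihood fit of a straight line over dose leaves 1 residual degree of freedom. Its residual measures departure from a straight line and not the spread between replicates, so its calls are not counted here. The scalings moved no comparison by more than 0.005 on the log2 scale, and the scalings, count filters and counts added changed no count of calls by over 1.5 times and reversed no called gene. Medians of the members and the 6 groups moved by less than the half-width of the counting interval of their middle gene under those settings, with means instead of medians and without HSPE1 and HTRA2, which share at least 10% of their exonic bases with other genes. The mean of the translocases at 100 nM was -0.006, beside a median of -0.10. No paired analysis was possible because each condition has 1 library. Leaving out a library was not possible for the same reason. Depth limits the calls: TIMM17B and PAM16, with 309 to 618 counts, had the widest intervals.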
